A study of Rattus norvegicus with 96 samples.

Results

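The central nucleus of the amygdala (CeA) and the dorsolateral bed nucleus of the stria terminalis (dlBNST) were compared in alcohol naive rats. They are the lateral parts of the extended amygdala, one in the temporal lobe and one in front of the thalamus, and 4 CeA arrays were set against 4 dlBNST arrays, chosen by brain region and rat group in the labels, of 96 arrays in all. The 96 arrays held 8 brain regions of 3 groups of rats with 4 arrays each. The CeA and dlBNST tissue was microdissected, and its total RNA was amplified and hybridized to Affymetrix rat arrays.

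Alcohol naive rats had the same age as the drinking rats and no history of alcohol. Dependent rats had learned to press a lever for alcohol, had drunk it for 4 weeks and had then been exposed to intermittent alcohol vapor for 4 weeks, and non-dependent rats had learned to drink without the vapor. Both drinking groups were killed 3 weeks after the end of vapor exposure, and their arrays of the same regions are used below only to see whether the difference between the regions recurred. The study's methods name adult male Wistar rats where they describe the vapor model in its behavioral experiment, and do not state strain, sex and age separately for the rats whose tissue was profiled. All values are levels on the log2 scale of GCRMA, in which 1 unit is a factor of 2, and differences are CeA minus dlBNST. The starting RNA was 30 or 50 ng depending on the region, and which region had which amount is not given in the sources used here, so amount and region cannot be told apart. In tissue samples of this kind, fewer cells of a type and less RNA per cell cannot be told apart either.

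Both nuclei are built mostly of GABA neurons, which inhibit the cells they contact, and many of these neurons also release peptides such as enkephalin, dynorphin, corticotropin releasing factor (CRF) and neurotensin. They project to each other and to the hypothalamus and brainstem, and are known for their part in fear, anxiety, stress and the aversive side of drug withdrawal. They are often treated as a single structure, although they lie apart, the CeA next to the cortex-like basolateral amygdala (BLA) and the dlBNST next to the septum, the striatum and the ventricles.

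Several markers of such neurons were bright in both regions. Gad1, which makes GABA, was at 13.83, 13.85, 13.89 and 13.88 in CeA and at 13.84, 13.76, 13.84 and 13.96 in dlBNST. Penk, the enkephalin precursor, averaged 13.38 ± 0.09 in CeA and 12.81 ± 0.18 in dlBNST (SD, n = 4 each). Meis2, a homeobox factor of these neurons, averaged 12.34 ± 0.11 in CeA and 12.42 ± 0.11 in dlBNST. Slc17a7, the glutamate transporter of cortical neurons, stayed at 3.31 ± 0.12 in CeA and 3.32 ± 0.22 in dlBNST, against a mean of 7.22 in the neighboring BLA. Of 16 listed markers, 12 were tested. Isl1, Tac1 and Calcrl were among the 4 with means at or below 4 over the 8 arrays, which were not tested. Prkcd, given below, was tested but far dimmer than Gad1 in both regions.

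The 8 arrays had medians of 3.867 to 3.886 over all probe sets. Over 14218 genes, each by its brightest probe set, the correlation between arrays was 0.9954 to 0.9965 within CeA, 0.9948 to 0.9967 within dlBNST and 0.9889 to 0.9915 between the regions. The array's own control for Gapdh at the 3' end read 9.82 ± 0.08 in CeA and 11.23 ± 0.08 in dlBNST, and the beta-actin 3' control read 9.59 ± 0.38 in CeA and 10.72 ± 0.41 in dlBNST. Averages of the added hybridization controls ran the other way, from 9.7 to 10.17 in CeA and from 8.82 to 9.7 in dlBNST. The part of these control levels in the differences below was not tested.

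One dlBNST array stood apart from the other 3. In dlBNST replicate 2, Slc17a6, the glutamate transporter of thalamic and hypothalamic neurons, was at 9.06, while the other 3 dlBNST arrays were at 4.60, 4.56 and 5.21 and the ventral BNST (vBNST) averaged 10.87. Of 7 genes at least 3 units higher in vBNST than in the other dlBNST arrays, 4 were raised by over 1 unit in this array, with a median of 1.53. The other dlBNST arrays had no such gene raised by over 1 unit. The deviation was not limited to vBNST genes. Of 33 genes at least 3 units higher in BLA, 6 were raised by over 1 unit in dlBNST replicate 2, with a median of 0.22. The other dlBNST arrays had none of these. In CeA replicate 3, 4 of 22 genes at least 3 units higher in the shell of the nucleus accumbens were raised by over 1 unit. Results that rest on this array are given without it as well.

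Of 8695 genes tested, 3184 (36.6%) passed an adjusted p of 0.05 in limma, which is what "called" means below. CeA was higher in 1227 of them (14.1%) and lower in 1957 (22.5%). The differences were small, with an SD of 0.424 over all genes, and the calls with a difference over 1 unit numbered 239 (2.75%), 74 higher in CeA (0.851%) and 165 lower (1.9%). In 3080 genes (35.4%) the 4 arrays of one region all lay beyond the 4 of the other, with CeA above in 1189 (13.7%) and dlBNST above in 1891 (21.7%). Of the 3184 called genes, 124 had a mean at or below 4 in their lower region and were tested only because of the other. The surplus of lower calls depended on the scale. CeA was the higher region in 38.5% of the calls as deposited. Its share was 49.0% after quantile normalization and 54.4% when each array was scaled to the same median. The median difference of all genes moved with it, at -0.045, 0.008 and 0.040. Both scalings were made on the gene values, each gene by its brightest probe set, of levels already quantile normalized in GCRMA. The medians made equal, here and below, are those of the gene values. They are not the array medians of 3.867 to 3.886 given above, which already lay close together. Without dlBNST replicate 2, 1267 genes were higher and 1823 lower.

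**Figure D1:**
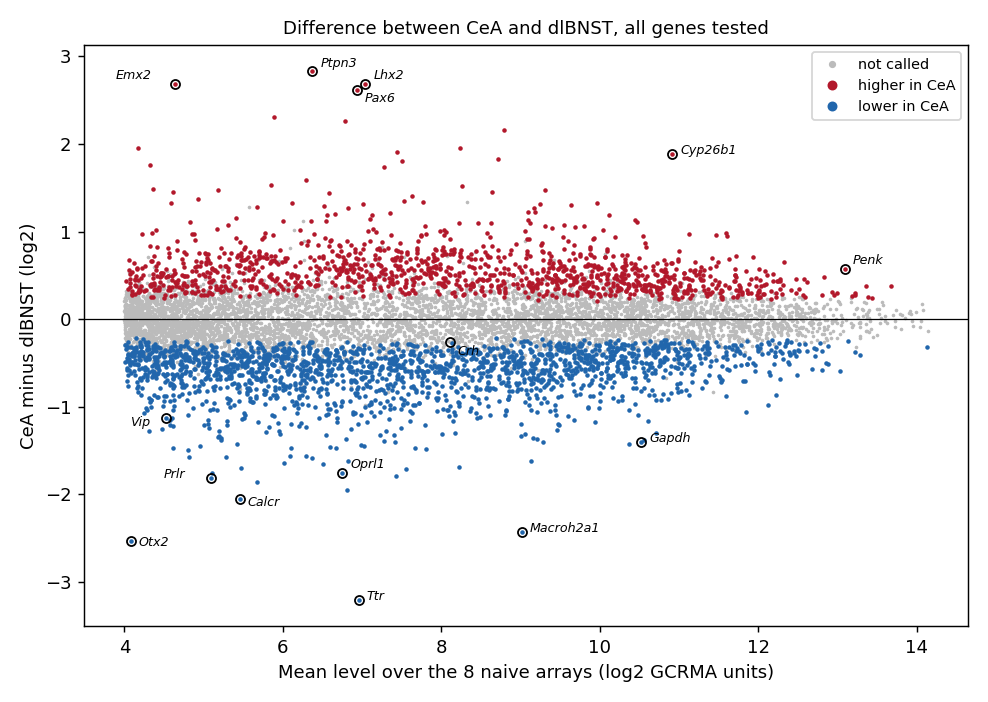
CeA minus dlBNST in naive rats (log2, vertical axis) against the mean level over the 8 arrays (log2 GCRMA units, horizontal axis) for each of the 8695 genes tested. Called genes are colored by direction and gray points were not called. Circled genes are named, from Ttr at -3.21 to Ptpn3 at 2.83, and most points lie within 1 unit of 0.

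The genes furthest up in CeA included several that pattern the developing forebrain. Lhx2, a LIM-homeodomain factor needed to make cortex, was at 8.51, 8.23, 8.43 and 8.37 in CeA and at 5.89, 5.73, 5.64 and 5.53 in dlBNST. The regions did not overlap, and the difference of 2.69 (SE 0.10) was called at an adjusted p of 1.01e-06. Emx2, a homeobox gene of the developing cortex and hippocampus, read 5.98, 5.64, 6.31 and 6.02 in CeA, against 3.36, 2.99, 3.36 and 3.5 in dlBNST, where all 4 arrays were below 4, the level used as a filter. Its difference was 2.68 (SE 0.15, adjusted p = 9.61e-06). Pax6, a paired-box factor of the border between cortex and subpallium, read 8.35, 8.49, 8.08 and 8.07 in CeA and 5.52, 6.20, 5.26 and 5.54 in dlBNST, a difference of 2.62 (SE 0.19, adjusted p = 2.57e-05). For these factors, every CeA array was above every dlBNST array by more than 1 unit.

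Ptpn3, a protein tyrosine phosphatase, had the largest positive difference of the separated genes. It was at 7.90, 8.56, 7.08 and 7.63 in CeA and at 4.26, 5.71, 4.90 and 4.95 in dlBNST, 2.83 apart with a wider error (SE 0.33, 95% interval 2.09 to 3.58, adjusted p = 0.000302). Cyp26b1 breaks down retinoic acid, a signal made from vitamin A. It was bright in both regions, at 12.21, 11.67, 11.59 and 11.96 in CeA and at 10.85, 10.27, 8.95 and 9.82 in dlBNST, and the difference of 1.89 (SE 0.33) had an adjusted p of 0.00212. The dlBNST arrays spread over almost 2 units in this gene while the CeA arrays stayed within 1.

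The other genes among the 15 largest on the CeA side, taken from called genes with no overlap, differed by 1.74 to 2.31. They were Exph5, an effector of Rab27 in vesicle transport, Prim1, a DNA primase subunit, Egfl6, a secreted matrix protein, Hopx, a small homeodomain protein, Thrsp, a thyroid hormone responsive factor of fat synthesis, the dynein light chain Dynlt2b, Ypel4, the peptide transporter Slc15a2, the ubiquitin ligase Mid1 and LOC102553173. Thrsp and LOC102553173 were also below 4 in every dlBNST array.

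Ttr led the other direction. It encodes transthyretin, the carrier of thyroid hormone and retinol, made in the brain mainly by the choroid plexus, and it was at 5.79, 5.15, 5.65 and 4.83 in CeA and at 8.27, 8.24, 6.95 and 10.80 in dlBNST. All dlBNST arrays were higher, but they spread over almost 4 units, and the difference of -3.21 had an SE of 0.65 (95% interval -4.64 to -1.77, adjusted p = 0.00408). Without the brightest array, dlBNST replicate 4, it was -2.46 (adjusted p = 0.0014). Otx2, a homeobox factor that choroid plexus also makes, read 2.93, 2.83, 2.66 and 2.82 in CeA and 5.51, 5.60, 5.06 and 5.23 in dlBNST, where it had less spread than Ttr. All 4 CeA arrays were below the filter level of 4, so Otx2 was tested only because of its dlBNST level, and the difference of -2.54 (SE 0.13, adjusted p = 4.9e-06) is against values near background. Its level in the array with the most Ttr, 5.23, was the second lowest of the dlBNST arrays. Of 10 choroid plexus genes listed, 9 were measured and 3 were tested, and members dim in both regions could not enter, so no count is read from the list. Enpp2, the third, differed by 0.25 (adjusted p = 0.226). Over the tested 3, the mean level per array was 6.38 to 6.83 in CeA and 7.91 to 9.08 in dlBNST. The defining genes Kl, Clic6, Folr1, Kcnj13, Kcne2, Aqp1 and Sostdc1 had no tested value, and the part of choroid plexus tissue in the Ttr and Otx2 results was not tested.

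Macroh2a1, which encodes the histone variant macroH2A1, was at 8.08, 7.57, 7.87 and 7.69 in CeA and at 10.27, 10.30, 9.95 and 10.41 in dlBNST, a difference of -2.43 (adjusted p = 9.61e-06). Calcr, the calcitonin and amylin receptor, was at 4.26, 3.95, 4.63 and 4.88 in CeA and at 6.70, 6.67, 5.66 and 6.91 in dlBNST, and Prlr, the prolactin receptor, at 4.04, 4.03, 4.33 and 4.33 in CeA and at 5.93, 6.76, 5.37 and 5.95 in dlBNST. Both receptors were thus close to the filter level in CeA and clearly above it in dlBNST. Their differences were -2.06 for Calcr (SE 0.28, adjusted p = 0.000537) and -1.82 for Prlr (SE 0.24, adjusted p = 0.0005), and without dlBNST replicate 2 they were -1.99 and -1.57. Oprl1, the nociceptin receptor, was at 5.69, 6.04, 5.78 and 5.98 in CeA and at 7.42, 7.73, 7.59 and 7.77 in dlBNST, with a difference of -1.75 (SE 0.11, adjusted p = 1.32e-05).

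The others of the 15 furthest down in CeA differed by -1.64 to -1.95. Among them were Sema6a, a membrane semaphorin that guides axons, Pou3f1, a POU-domain factor, Uchl1, a neuronal ubiquitin hydrolase, Atg9a, a lipid scramblase of autophagy, Ergic3, a cargo receptor of the early secretory pathway, and Pcp4l1, Rai14, Tmem33 and the proteasome subunit Psmd7. Psmd7 had another probe set that differed by only -0.08, and the second one of Tmem33 differed by -0.34. Over all called genes, 602 had a second probe set above the filter. In 192 of these another probe set was called the same way, and in 77 the opposite way.

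**Figure D2:**
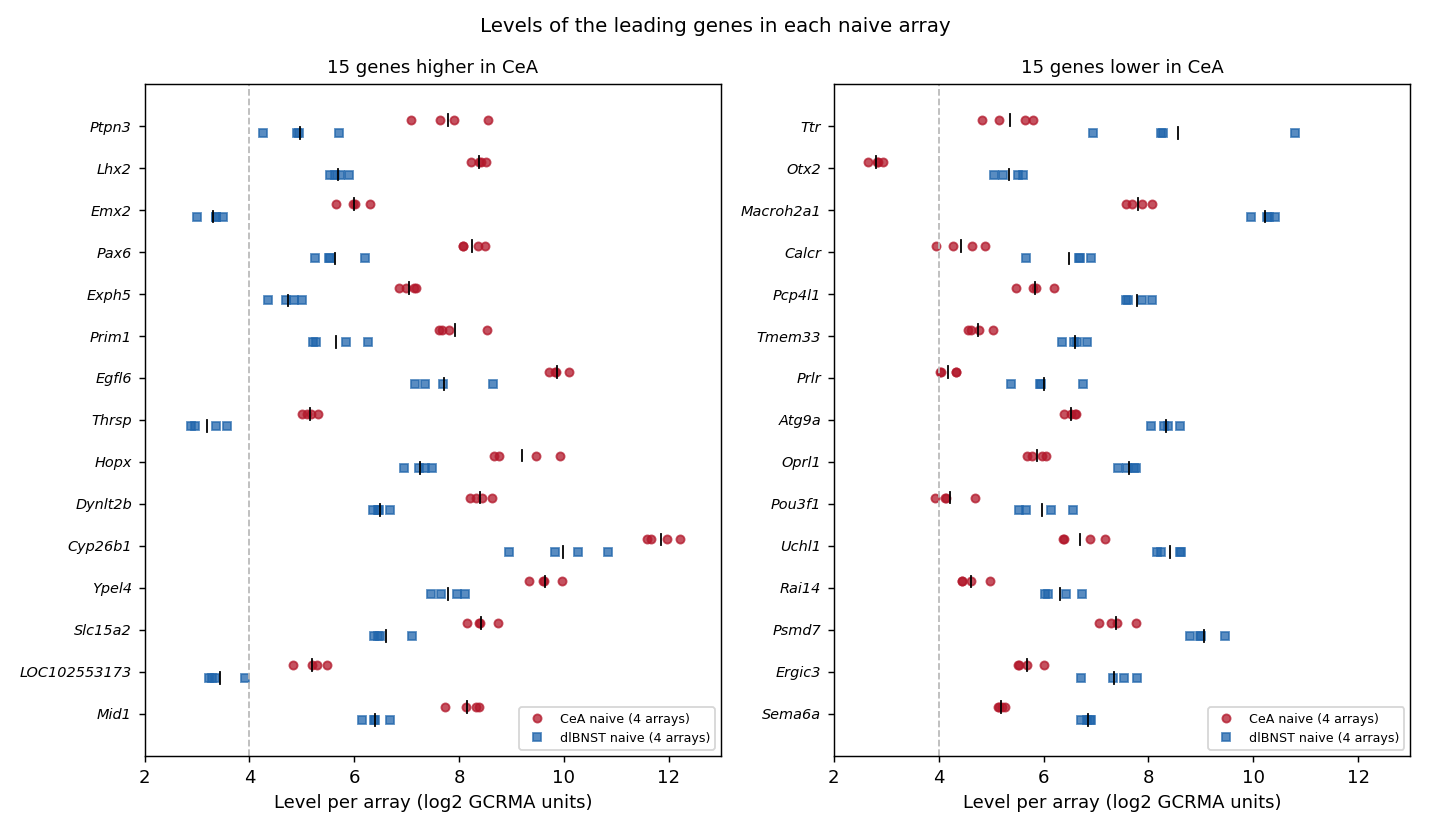
Level of each array (log2 GCRMA units, horizontal axis) for the 15 genes furthest up in CeA and the 15 furthest down, 4 CeA arrays and 4 dlBNST arrays per gene. Ticks are means and the dashed line marks the filter level of 4. No gene shown has overlapping regions, and Ttr has the widest spread, 6.95 to 10.80 in dlBNST.

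Gene groups were read against all genes tested, of which 14.1% were higher and 22.5% lower in CeA. Of 43 regional transcription factors tested, 17 were higher and 5 lower in CeA, with a median difference of 0.01, against -0.045 for all genes. Beside Lhx2, Emx2, Pax6 and Hopx, the higher ones included Foxp1, a forkhead factor of striatal-type neurons, at 8.96, 9.31, 9.19 and 8.83 in CeA and 8.08, 8.01, 8.19 and 8.09 in dlBNST. Its difference was 0.98 (SE 0.11, adjusted p = 0.000281), and all 3 of its probe sets agree in sign, from 0.98 to 1.03. Id4, an inhibitor of helix-loop-helix factors, was higher by 0.78 (SE 0.11, adjusted p = 0.000589). The 5 lower ones were Pou3f1 at -1.75 (SE 0.23, adjusted p = 0.000525), Dlx1 at -1.23, Foxp2 at -0.82, Zfhx4 at -0.61 and Tle4 at -0.41. Dlx1, a homeobox factor of GABA neurons, was at 5.0, 5.03, 5.45 and 5.33 in CeA and at 5.96, 7.58, 6.13 and 6.06 in dlBNST. Without dlBNST replicate 2 its difference was -0.85, still called (adjusted p = 0.00184). Foxp2 was no longer called without that array (-0.71, adjusted p = 0.0622) or without dlBNST replicate 1 (-0.81, adjusted p = 0.054). Nkx2-1, a factor of the medial ganglionic eminence from which part of the BNST develops, was at 5.17, 5.19, 5.37 and 4.92 in CeA and at 5.13, 5.38, 5.29 and 5.61 in dlBNST, and its difference of -0.19 was not called (95% interval -0.47 to 0.09, adjusted p = 0.273).

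**Figure D3:**
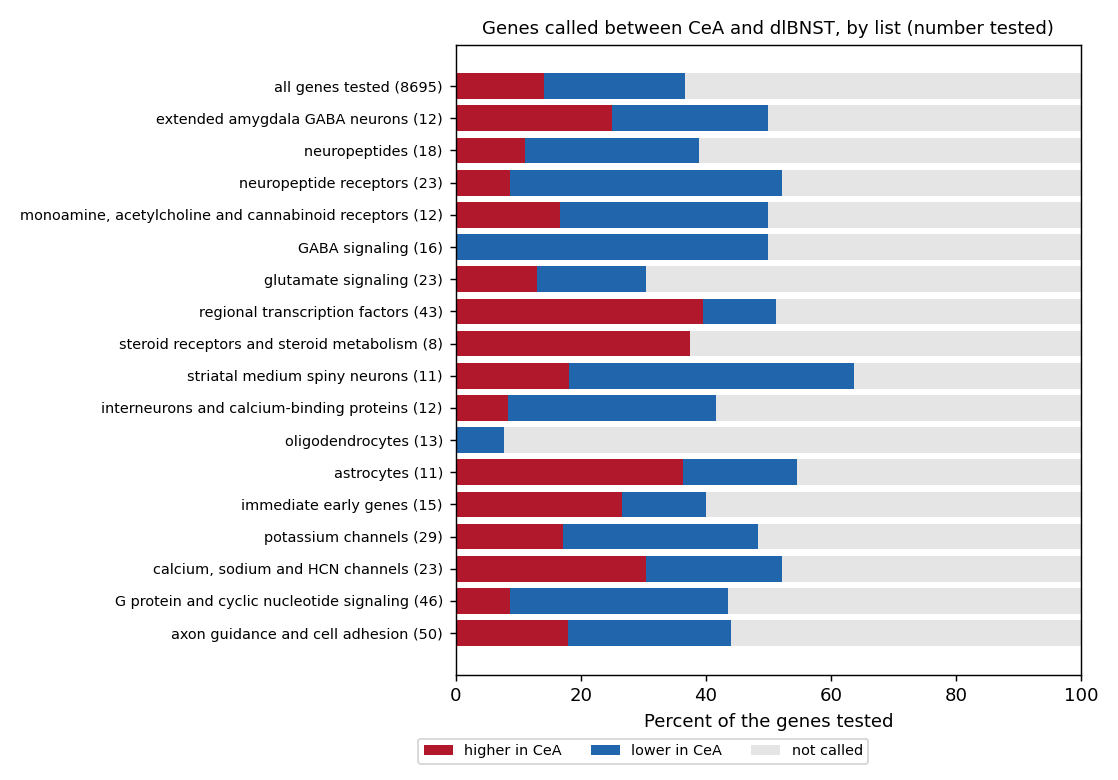
Percent of the tested genes of each list with at least 8 genes tested (number in brackets) that were higher in CeA, lower in CeA or not called in naive rats. Shorter lists are not shown. All 8695 genes tested stand as a bar of their own, with 14.1% higher and 22.5% lower.

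The peptides for which both nuclei are known were similar in level or modestly apart. Of 18 neuropeptide genes tested, 2 were higher and 5 lower in CeA, and 11 were not called, with a median difference of -0.22. Penk was at 13.35, 13.45, 13.46 and 13.27 in CeA and at 13.01, 12.70, 12.63 and 12.89 in dlBNST, a difference of 0.58 (SE 0.10, adjusted p = 0.00236) near the top of the array's range. Pdyn, the dynorphin precursor, was at 9.76, 9.50, 9.57 and 9.80 in CeA and at 9.46, 9.01, 9.35 and 9.25 in dlBNST. Its difference of 0.39 (adjusted p = 0.026) was small and lost its call without any one of 4 arrays (CeA replicates 1 and 4, dlBNST replicates 2 and 4), at 0.30 to 0.38 with adjusted p of 0.0547 to 0.0693. Crh, which encodes CRF, was at 6.66, 7.97, 8.74 and 8.54 in CeA and at 8.42, 8.44, 8.02 and 8.08 in dlBNST. CeA replicate 1 was the lowest, the regions overlapped, and the difference of -0.26 was not called, with a 95% interval of -1.09 to 0.58 (adjusted p = 0.625). Nts (neurotensin), Sst (somatostatin) and Cartpt, the precursor of the CART peptides, were not called either, with differences of 0.25 (95% interval -0.05 to 0.55), -0.18 (-1.11 to 0.75) and 0.00 (-0.87 to 0.86).

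The peptide genes lower in CeA were Vip, Cbln2, Npy, Tac3 and Scg2. Vip, vasoactive intestinal peptide, was at 3.82, 3.47, 4.24 and 4.31 in CeA and at 5.66, 4.92, 5.06 and 4.71 in dlBNST, a difference of -1.13 (SE 0.23, adjusted p = 0.00416). The CeA arrays of Vip lay around the filter level of 4, so it was tested only because of its dlBNST level. It was not called in the fit that shared the spread of all 32 naive arrays (adjusted p = 0.269). Scg2, secretogranin II of dense core vesicles, was at 12.06, 12.35, 12.30 and 12.36 in CeA and at 12.62, 12.90, 12.52 and 12.71 in dlBNST, a difference of -0.42 (adjusted p = 0.0136). Npy, neuropeptide Y, was at 7.68, 7.50, 8.10 and 8.43 in CeA and at 8.65, 9.09, 8.29 and 8.63 in dlBNST, so that 1 CeA array lay above the lowest dlBNST array. The difference of -0.74 (adjusted p = 0.0232) lost its call without CeA replicate 1 (-0.66, adjusted p = 0.0636), CeA replicate 2 (-0.59, adjusted p = 0.0611) or dlBNST replicate 2 (-0.60, adjusted p = 0.0564). Cbln2, a synapse organizer, differed by -0.81 (adjusted p = 0.00549, and 0.225 with the spread of all 32 naive arrays) and Tac3, the neurokinin B precursor, by -0.48 (adjusted p = 0.0189).

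Several peptide genes are classic targets of CREB, the factor that cyclic AMP and calcium activate. Its site, the cyclic AMP response element TGACGTCA, or its shorter form TGACGT was searched on both strands in RefSeq promoters of the GRCr8 build, from 250 bases before to 50 after the start of a gene. Every full site also holds the shorter form. The full site stood in 612 of 33469 promoters (1.83%) and in 4 of the 13 tested peptide genes with a promoter in the set, namely Cartpt, Scg2, Sst and Vgf. Crh, Penk, Tac3, Cck and Chga, the other tested peptide genes, had no promoter in the set and were not searched. The short form stood in 2658 promoters (7.94%) and in 5 of the 13, Vip being the fifth. Vip and Scg2 were lower in CeA while Sst, Cartpt and Vgf were not called, so promoters with the site are shown from both kinds, with the site in capitals. The match is to letters only.
Vip, chr1:44470230-44470529, + strand: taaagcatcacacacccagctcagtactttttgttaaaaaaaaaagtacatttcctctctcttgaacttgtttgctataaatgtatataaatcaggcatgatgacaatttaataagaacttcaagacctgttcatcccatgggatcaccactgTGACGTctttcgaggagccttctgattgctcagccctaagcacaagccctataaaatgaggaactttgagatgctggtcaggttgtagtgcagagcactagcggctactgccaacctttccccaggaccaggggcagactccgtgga
Scg2, chr9:88256817-88257116, - strand: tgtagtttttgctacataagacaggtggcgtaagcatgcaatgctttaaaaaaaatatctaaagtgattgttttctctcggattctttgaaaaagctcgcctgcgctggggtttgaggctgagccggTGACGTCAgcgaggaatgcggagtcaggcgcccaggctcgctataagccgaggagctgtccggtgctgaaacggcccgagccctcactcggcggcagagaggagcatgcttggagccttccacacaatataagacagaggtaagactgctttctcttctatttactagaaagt
Sst, chr11:90461296-90461595, + strand: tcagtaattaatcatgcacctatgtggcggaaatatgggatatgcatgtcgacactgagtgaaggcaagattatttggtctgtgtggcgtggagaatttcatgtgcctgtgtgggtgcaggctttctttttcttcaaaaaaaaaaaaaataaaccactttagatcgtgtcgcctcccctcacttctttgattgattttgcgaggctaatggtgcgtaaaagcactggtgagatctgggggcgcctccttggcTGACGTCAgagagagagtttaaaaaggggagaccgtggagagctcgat
Cartpt, chr2:32991186-32991485, - strand: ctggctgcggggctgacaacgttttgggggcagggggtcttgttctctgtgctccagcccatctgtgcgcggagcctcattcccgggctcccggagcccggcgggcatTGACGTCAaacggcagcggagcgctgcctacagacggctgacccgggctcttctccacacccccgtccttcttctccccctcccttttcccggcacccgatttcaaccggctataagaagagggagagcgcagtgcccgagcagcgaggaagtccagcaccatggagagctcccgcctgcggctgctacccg
Counted from the start of the gene, the site began at -97 in Vip, -123 in Scg2, -142 in Cartpt and 2 in Sst.

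Peptide receptors were mostly lower in CeA where they were called. Of 23 tested, 2 were higher and 10 lower in CeA, with a median of -0.32. Beyond Calcr, Prlr and Oprl1, the lower ones were Ntsr2, a neurotensin receptor, Galr1 and Galr2, galanin receptors, Npr2, the receptor of C-type natriuretic peptide, Mc4r, a melanocortin receptor, Trhr, the thyrotropin releasing hormone receptor, and Sstr1, a somatostatin receptor. Ntsr2 was at 8.53, 8.29, 8.86 and 7.93 in CeA and at 9.63, 9.87, 9.57 and 9.80 in dlBNST, a difference of -1.31 (SE 0.18, adjusted p = 0.00053). Galr1 was at 4.34, 4.47, 4.06 and 4.15 in CeA and at 5.16, 5.24, 5.30 and 5.70 in dlBNST, a difference of -1.09 (SE 0.14, adjusted p = 0.000397). In both, no CeA array reached the lowest dlBNST array. The other 5 differed by -0.55 to -0.80.

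The kappa opioid receptor, bound by dynorphin, went the other way. Oprk1 was at 7.52, 7.74, 7.68 and 7.54 in CeA and at 6.29, 7.35, 7.05 and 6.60 in dlBNST, so that CeA was higher by 0.79 (SE 0.20, adjusted p = 0.0116). With the spread of all 32 naive arrays the adjusted p was 0.0806. Vipr1, a VIP receptor, was higher by 0.63 (adjusted p = 0.00188), and it too was not called with the spread of all 32 arrays (adjusted p = 0.158). Npy1r, a receptor of neuropeptide Y, was at 7.69, 7.28, 7.20 and 8.04 in CeA and at 8.04, 7.87, 8.17 and 7.86 in dlBNST. It overlapped and was not called (-0.43, adjusted p = 0.0773), but was without CeA replicate 4 (-0.60, adjusted p = 0.0125). Oprm1 and Oxtr were too dim to test.

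Of 12 monoamine, acetylcholine and cannabinoid receptors tested, 2 were higher and 4 lower in CeA, with a median of 0.06. Adra2a, the alpha-2A adrenergic receptor, was at 6.54, 6.79, 7.27 and 7.48 in CeA and at 7.94, 7.59, 7.77 and 8.09 in dlBNST, a difference of -0.83 (SE 0.20, adjusted p = 0.00924). Chrm3, a muscarinic receptor, differed by -0.49 (adjusted p = 0.00314). The dopamine receptors Drd1 and Drd2 were lower in CeA by small differences of -0.61 (adjusted p = 0.0166) and -0.54 (adjusted p = 0.0316), and neither was called with the spread of 32 arrays (adjusted p = 0.0918 for Drd1 and 0.0799 for Drd2). Drd2 also lost its call without CeA replicate 1, 2 or 4 or dlBNST replicate 1 or 3, at -0.43 to -0.53 with adjusted p of 0.0638 to 0.0851. Adora2a, an adenosine receptor of striatal neurons, was higher by 0.58 (adjusted p = 0.00915, and 0.196 with 32 arrays), and the cannabinoid receptor Cnr1 by 0.36 (adjusted p = 0.0177), although its second, dimmer probe set differed by -0.39. Of 11 striatal neuron genes tested, 2 were higher and 5 lower, with a median of -0.27, but 3 were higher and 3 lower under either scaling, quantile normalization or equal array medians. Rasgrp2, an activator of Rap, was at 6.04, 6.14, 5.89 and 6.33 in CeA and at 7.31, 7.25, 7.32 and 7.21 in dlBNST, a difference of -1.18 (SE 0.10, adjusted p = 7.41e-05). Pde1b, a cyclic nucleotide phosphodiesterase, differed by -1.05 (SE 0.12, adjusted p = 0.000239).

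Genes of GABA signaling were called in one direction as deposited. Of 16 tested, 8 were lower in CeA and none higher, with a median of -0.33, but with arrays scaled to the same median 5 were lower and 2 higher. Slc32a1, which loads GABA into vesicles, was at 10.04, 10.14, 9.86 and 10.04 in CeA and at 10.63, 10.53, 11.24 and 10.84 in dlBNST, a difference of -0.79 (SE 0.15, adjusted p = 0.0028). Gad2 was at 7.48, 7.71, 7.61 and 7.97 in CeA and at 8.48, 8.21, 7.93 and 8.79 in dlBNST. Its difference of -0.66 (adjusted p = 0.0156) went with an overlap and with an adjusted p of 0.116 when all 32 arrays shared the spread, while Gad1, near the top of the range, differed by 0.01 (95% interval -0.16 to 0.19). The receptor subunits Gabrb2 (-0.38, adjusted p = 0.00526) and Gabrb1 (-0.40, adjusted p = 0.0171) and the GABA-B receptor Gabbr1 (-0.28, adjusted p = 0.0217) were bright genes with small differences. Scaling to the same median ended the calls of Gabrb1 (adjusted p = 0.0545) and Gabbr1 (adjusted p = 0.103), and Gabbr1 also lost its call without CeA replicate 3 or dlBNST replicate 3 or 4 (-0.25 to -0.27, adjusted p of 0.0557 to 0.0589).

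Of 23 genes of glutamate signaling tested, 3 were higher and 4 lower, with a median of -0.15, and 4 were higher and 3 lower under either scaling. The postsynaptic scaffolds Shank2 and Shank3 were higher in CeA by 0.74 (SE 0.12, adjusted p = 0.00121) and 0.54 (SE 0.11, adjusted p = 0.00488). Grin3a, an NMDA receptor subunit that lowers calcium flow, was at 4.34, 3.55, 3.60 and 3.9 in CeA and at 5.45, 4.90, 4.91 and 5.15 in dlBNST, a difference of -1.25 (SE 0.19, adjusted p = 0.000893). Most CeA arrays of Grin3a were below the filter level of 4, so it was tested only because of its dlBNST level. The kainate receptor subunit Grik2 differed by -0.69 (SE 0.14, adjusted p = 0.00469) and the metabotropic receptor Grm3 by -0.57 (SE 0.12, adjusted p = 0.00588). Slc17a6 was not called (-0.80, adjusted p = 0.491), and without dlBNST replicate 2 its difference was 0.27. The AMPA receptor subunits Gria1 to Gria4 differed by -0.06 to 0.07 and none was called.

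Genes of steroid action were called only upward in CeA, 3 of 8 tested, with a median of 0.25. The share called, 37.5%, was near the 36.6% of all genes tested. Nr3c2, the mineralocorticoid receptor, was at 10.39, 10.43, 10.27 and 10.39 in CeA and at 9.83, 9.32, 9.46 and 9.21 in dlBNST, a difference of 0.92 (SE 0.13, adjusted p = 0.000687). Hsd11b1, which regenerates active corticosterone, was at 11.85, 11.62, 11.56 and 11.43 in CeA and at 10.70, 10.94, 10.46 and 10.47 in dlBNST, a difference of 0.97 (SE 0.13, adjusted p = 0.00056). Both were separated between the regions with little spread. Cyp7b1, an oxysterol hydroxylase, differed by 0.47 (adjusted p = 0.0193, and 0.0506 without dlBNST replicate 3). Nr3c1, the glucocorticoid receptor, was at 11.34, 11.20, 11.20 and 11.08 in CeA and at 11.02, 11.25, 10.92 and 10.88 in dlBNST. It was not called, with a difference of 0.19 and a 95% interval of -0.04 to 0.42 (adjusted p = 0.182). Cyp19a1, aromatase, was at 4.42, 4.02, 4.28 and 4.33 in CeA and at 4.24, 5.91, 4.03 and 4.03 in dlBNST, where only replicate 2 was raised, and was not called. Esr1 and Pgr were too dim to test.

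Ion channels divided between the regions. Of 29 potassium channel genes tested, 5 were higher and 9 lower in CeA, with a median of -0.11, but 7 were higher and 7 lower under either scaling. Kcnq5, a subunit of the M-current that restrains firing, was at 10.84, 10.75, 10.54 and 10.74 in CeA and at 9.62, 8.92, 9.86 and 9.71 in dlBNST, a difference of 1.19 (SE 0.18, adjusted p = 0.00105). Kcnma1, the large calcium-activated channel, was higher by 1.09 (SE 0.19, adjusted p = 0.00212), although its second, dimmer probe set differed by -0.17. Kcna6, a delayed rectifier, was lower by 1.06 in CeA (SE 0.21, adjusted p = 0.0035), and Kcnk2, a background channel, by 0.96 (SE 0.18, adjusted p = 0.00257). Of 23 calcium, sodium and related channel genes, 7 were higher and 5 lower, with a median of 0.24. Ano3, an anoctamin, was at 12, 11.98, 11.82 and 11.97 in CeA and at 10.58, 11.22, 11.16 and 10.99 in dlBNST, a difference of 0.96 (SE 0.14, adjusted p = 0.000739). Cacna1h, a T-type calcium channel that supports burst firing, was at 3.38, 3.81, 3.85 and 3.66 in CeA and at 5.03, 4.67, 5.04 and 5.07 in dlBNST, a difference of -1.28 (SE 0.13, adjusted p = 0.000162). All CeA arrays were below the filter level for Cacna1h.

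Of 46 genes of G protein and cyclic nucleotide signaling, 4 were higher and 16 lower in CeA, with a median of -0.11, and with arrays scaled to the same median 9 were higher and 14 lower. The lower ones included the G protein subunits Gng3 (-1.05, SE 0.11, adjusted p = 0.000162) and Gnao1 (-0.76, SE 0.13, adjusted p = 0.00209) and the regulators of G protein signaling Rgs16 (-1.01, SE 0.11, adjusted p = 0.000172) and Rgs17 (-0.55, SE 0.09, adjusted p = 0.00116). Other, dimmer probe sets of Rgs17 differed by -1.15, -0.06 and 0.29, so its difference depends on the probe set. Plcb1, a phospholipase C, was higher by 0.55 (SE 0.09, adjusted p = 0.00172). Prkcd, the protein kinase that marks a class of lateral CeA neurons, was at 5.02, 5.26, 5.13 and 5.25 in CeA and at 5.09, 4.86, 4.71 and 4.66 in dlBNST. Its difference was only 0.33 (adjusted p = 0.0418), with 1 array overlapping, and it was not called with the replicate number as a block (adjusted p = 0.0623) or without CeA replicate 2, 3 or 4 or dlBNST replicate 2, 3 or 4 (0.27 to 0.34, adjusted p of 0.0614 to 0.106).

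Genes of axon guidance and cell adhesion were called in both directions, 9 higher and 13 lower of 50 tested with a median of -0.13, or 13 higher and 11 lower with arrays scaled to the same median. Robo2, a receptor for Slit, was at 10.04, 9.59, 9.70 and 9.84 in CeA and at 8.50, 8.51, 8.72 and 8.53 in dlBNST, a difference of 1.23 (SE 0.11, adjusted p = 8.71e-05). The Eph receptors among them were Ephb3, higher by 1.26 (SE 0.19, adjusted p = 0.000973), Epha4 by 0.99 (SE 0.09, adjusted p = 0.00012) and Ephb1 by 0.69 (SE 0.10, adjusted p = 0.000949). Their ligand family had Efnb3 lower by 1.07 (SE 0.13, adjusted p = 0.000344). Sema6a was at 5.21, 5.14, 5.16 and 5.27 in CeA and at 6.84, 6.89, 6.91 and 6.72 in dlBNST, with no overlap, a difference of -1.64 (SE 0.08, adjusted p = 4.9e-06), and Sema5a and Sema3c differed by -1.40 and -0.89. The second, dimmer probe set of Sema6a differed by -0.43.

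Of 15 immediate early genes tested, which neurons induce upon activity, 4 were higher and 2 lower in CeA, with a median of 0.24. The share called, 40.0%, was near the 36.6% of all genes tested. Jun was among the lower ones, with a difference of -0.465, and its other probe sets differed by -0.83 and 0.24. Ptgs2, cyclooxygenase 2, was at 6.07, 6.20, 6.13 and 6.85 in CeA and at 4.91, 5.20, 4.99 and 5.04 in dlBNST, a difference of 1.28 (SE 0.16, adjusted p = 0.000417). Egr2, a zinc-finger factor, was at 6.30, 5.71, 5.70 and 5.69 in CeA and at 5.32, 4.52, 4.43 and 4.82 in dlBNST, a difference of 1.08 (SE 0.21, adjusted p = 0.00304), and Nr4a3 was higher by 0.65 (SE 0.11, adjusted p = 0.00176). The best known member, Fos, differed by 0.24 and was not called (adjusted p = 0.554), and neither was Egr1 (0.19, adjusted p = 0.126).

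Glial and vascular genes did not follow the regions as whole lists. Of 13 oligodendrocyte genes tested, only Aspa was called, at 4.96, 5.0, 5.22 and 5.21 in CeA and at 6.00, 6.81, 6.25 and 6.02 in dlBNST (-1.17, SE 0.17, adjusted p = 0.000808). The mean level of the 13 genes per array was 8.13 to 8.28 in CeA and 7.97 to 8.76 in dlBNST, so the arrays of the regions overlapped. Of 11 astrocyte genes, 4 were higher and 2 lower, with list means of 10.84 to 10.95 in CeA and 10.87 to 11.04 in dlBNST. Gfap, the astrocyte filament protein, was at 8.21, 8.59, 8.32 and 8.53 in CeA and at 9.43, 9.44, 8.65 and 9.65 in dlBNST, a difference of -0.88 (adjusted p = 0.0068, and 0.0639 with the spread of 32 arrays). Aqp4, the water channel of astrocyte endfeet, was higher by 0.28 (adjusted p = 0.0206) but not called without dlBNST replicate 3 (0.24, adjusted p = 0.0626). Its dimmer probe sets went the other way, at -0.67 (limma adjusted p = 0.00746 over probe sets) and -0.06, so its direction depends on the probe set. Of 5 microglia genes, P2ry12 was higher by 0.64 (adjusted p = 0.00423) and C1qa lower by 0.60 (adjusted p = 0.00355). Of 6 endothelial and mural genes 1 was called. Of the genes of cortical-type glutamate neurons, 4 were tested. Lhx2 was the only one higher, and Cux2 was lower in CeA (-0.395), a call not kept after quantile normalization. The list means were 7.62 to 7.84 in CeA and 6.88 to 7.22 in dlBNST, a gap that came mostly from Lhx2 and not from the list as a whole. Slc17a7, which defines these neurons, was at or near background in both regions.

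The levels in the other naive regions place the leading genes. Lhx2 averaged 8.73 in BLA, 9.07 in medial prefrontal cortex (mPFC), 8.11 in the core and 8.32 in the shell of the nucleus accumbens (NAcC and NAcSh), all near the CeA level of 8.38, against 5.70 in dlBNST, 4.22 in vBNST and 2.79 in the ventral tegmental area (VTA). Emx2 was low in vBNST too, at 2.84. Cyp26b1 averaged 12.33 in BLA and 6.08 in vBNST, so that CeA stood next to BLA and dlBNST between BLA and vBNST. Pax6 was highest in CeA, at 8.25 ± 0.21, and its neighbor in the order was BLA at 7.96 ± 0.77, which does not differ beyond its spread. On the other side, Calcr averaged 9.17 in vBNST, 6.88 in NAcSh and 3.13 in BLA, and Prlr 8.20 in vBNST and 2.34 to 2.98 in the 5 regions outside the extended amygdala. Oprl1 averaged 8.07 in vBNST. Crh was highest in dlBNST (8.24 ± 0.22) and CeA (7.98 ± 0.94), which do not differ beyond their spread, followed by vBNST at 7.04 and by 3.41 to 5.20 elsewhere.

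Across all genes, the sign of the difference was set beside that of the neighboring regions, BLA minus vBNST, which shares no array with it. BLA was above vBNST in 39.4% of the 8695 genes, in 790 of the 1227 genes higher in CeA (64.4%) and in 60 of the 74 higher by over 1 unit (81.1%). BLA was below vBNST in 1531 of the 1957 genes lower in CeA (78.2%) and in 141 of the 165 lower by over 1 unit (85.5%). Over 26 to 29 genes that were at least 3 units higher in BLA, CeA replicate 4 differed from the other 3 CeA arrays by a median of 0.28, with 1 gene over 1 unit above them, while replicates 1, 2 and 3 differed by -0.06, -0.09 and -0.11 with none. Such a comparison cannot show BLA tissue common to all 4 CeA arrays, whose part in the differences was not tested.

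**Figure D4:**
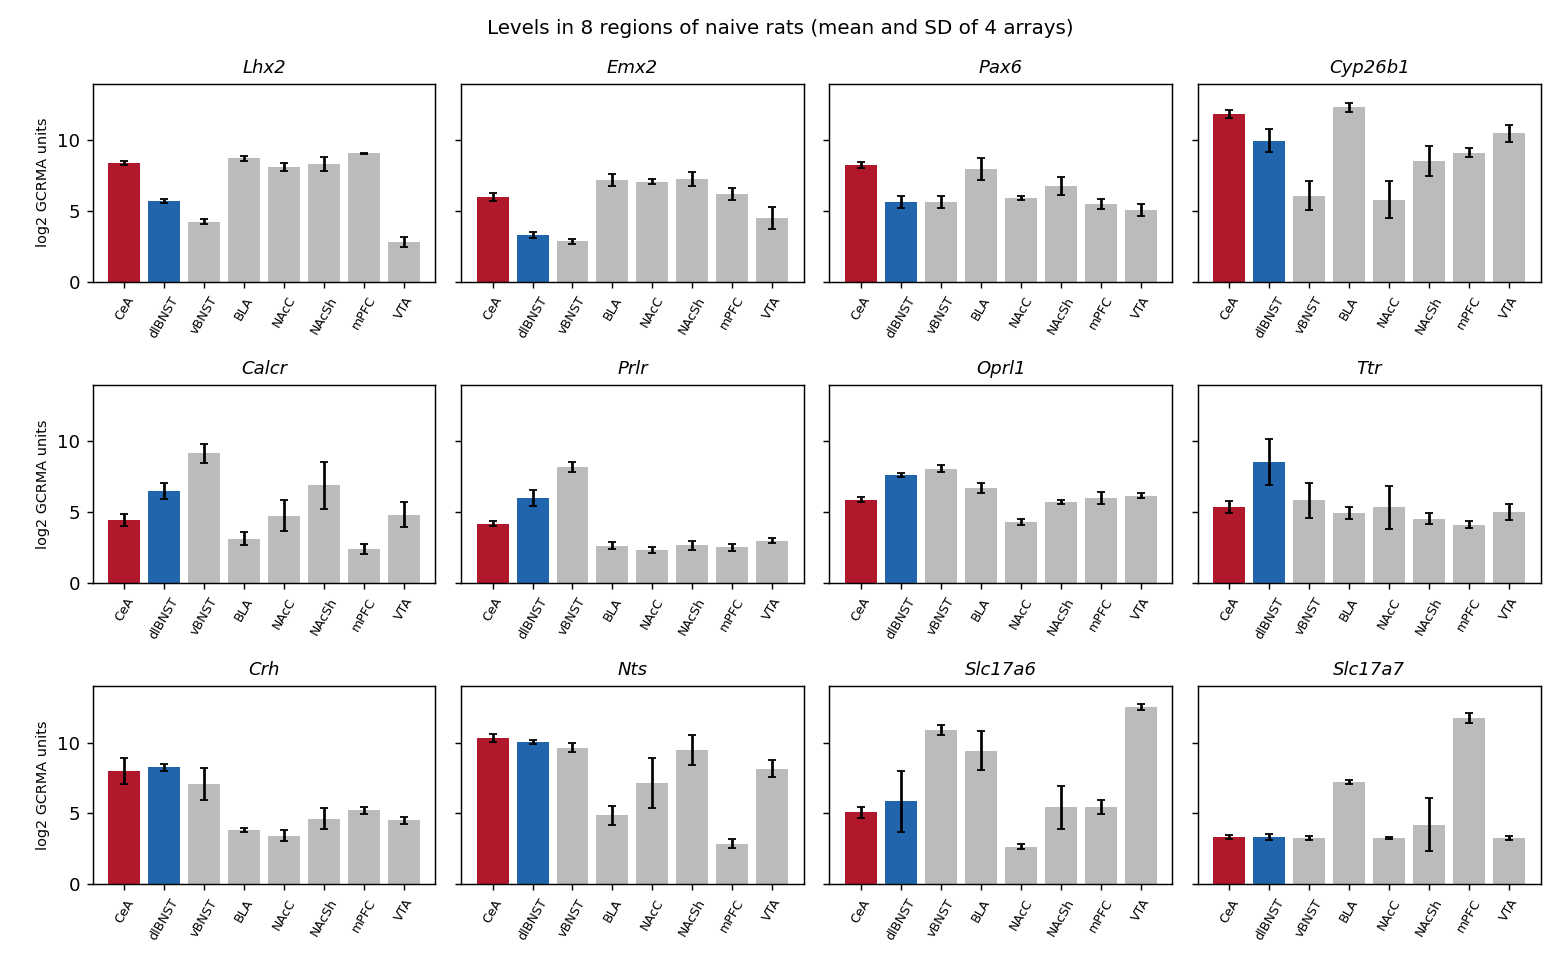
Level of 12 genes in 8 regions of naive rats (log2 GCRMA units, mean and SD of 4 arrays, CeA and dlBNST colored). Lhx2, Emx2 and Cyp26b1 are as high in BLA as in CeA or higher, Calcr, Prlr and Oprl1 are highest in vBNST, and Crh is highest in dlBNST and CeA.

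Among the 28 pairs of the 8 regions, which share arrays and are given as a description, CeA and dlBNST ranked ninth from the fewest genes called, but second from the fewest called with a difference over 1 unit. NAcC and NAcSh had 508 called and 183 over 1 unit, and dlBNST and vBNST had 1445 and 268, against 3184 and 239 here. The mean profiles of CeA and dlBNST correlated at 0.9862, close to 0.9864 for NAcC and NAcSh.

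The difference between CeA and dlBNST was then read in rats that drank. In dependent rats, with 4 arrays each, 1734 genes were called (19.9%), of which 716 were higher (8.23%) and 1018 lower in CeA (11.7%). In non-dependent rats, with 3 CeA arrays and 4 dlBNST arrays, 1516 were called (17.4%), of which 562 were higher (6.46%) and 954 lower (11%). The CeA array of non-dependent replicate 2 was left out. Its correlation with the other 7 non-dependent arrays was 0.273 to 0.289 over the genes tested, against 0.961 to 0.993 among those 7. With it, limma called no gene, and 587 had an unadjusted p below 0.05. These counts moved with single arrays. In non-dependent rats, 84 genes were higher and 242 lower without CeA replicate 4, 137 and 329 without CeA replicate 1, and 347 and 569 without CeA replicate 3, and 298 and 350 were higher without dlBNST replicates 3 and 1. In dependent rats, 462 were higher without CeA replicate 2 and 466 without dlBNST replicate 2, and 667 were lower without CeA replicate 3. Of the 1227 genes higher in naive CeA, 1156 (94.2%) had the same sign in dependent and 1158 (94.4%) in non-dependent rats, and 470 and 416 were called the same way. Of the 1957 lower, 1866 (95.4%) and 1873 (95.7%) had the same sign, and 815 and 803 were called. The share with the same sign among all genes tested was not taken, so these shares have no background beside them. Of the 74 genes higher by over 1 unit, 58 were called in dependent and 52 in non-dependent rats, and of the 165 lower, 142 and 149. Called the opposite way were 2 of the higher genes in each group and none of the lower.

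Lhx2 differed by 2.11 in both dependent and non-dependent rats, Pax6 by 2.60 and 2.48, Otx2 by -2.87 and -2.96, Ttr by -4.34 and -4.61, Calcr by -2.35 and -1.91, and Prlr by -1.39 and -1.86. All of these were called in both groups. Nr3c2 (1.0 and 0.87), Hsd11b1 (0.88 and 0.77) and Robo2 (1.5 and 1.28) were called in both groups as well. Vip was not, with 0.19 and -0.45, and Pdyn was not, with 0.22 and 0.18.

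Whether the region difference itself changed was tested as an interaction over 23 arrays. No gene was called in either contrast with limma. Against naive rats, 733 genes (8.43%) had an unadjusted p under 0.05 in dependent rats, with a lowest adjusted p of 0.0533, and 540 (6.21%) in non-dependent rats, with a lowest adjusted p of 0.381. Leaving out single arrays gave 0 to 4 calls for dependent rats, the 4 without dlBNST dependent replicate 1, and none for non-dependent rats. With rat group and replicate number as a block, no gene was called either, with 908 and 517 genes at an unadjusted p under 0.05 and a lowest adjusted p of 0.0813 in dependent and 0.674 in non-dependent rats. The lowest adjusted p belonged to Icoslg, a ligand of T-cell costimulation, whose region difference was 0.06 in dependent and -1.15 in naive rats, an interaction of 1.20 (adjusted p = 0.0533). Npy1r differed by 0.99 in dependent rats (adjusted p = 0.00918) and by 0.85 in non-dependent rats (adjusted p = 0.0429), against -0.43 in naive rats. Its interactions of 1.43 and 1.29 were not called (adjusted p = 0.149 and 0.705).

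**Figure D5:**
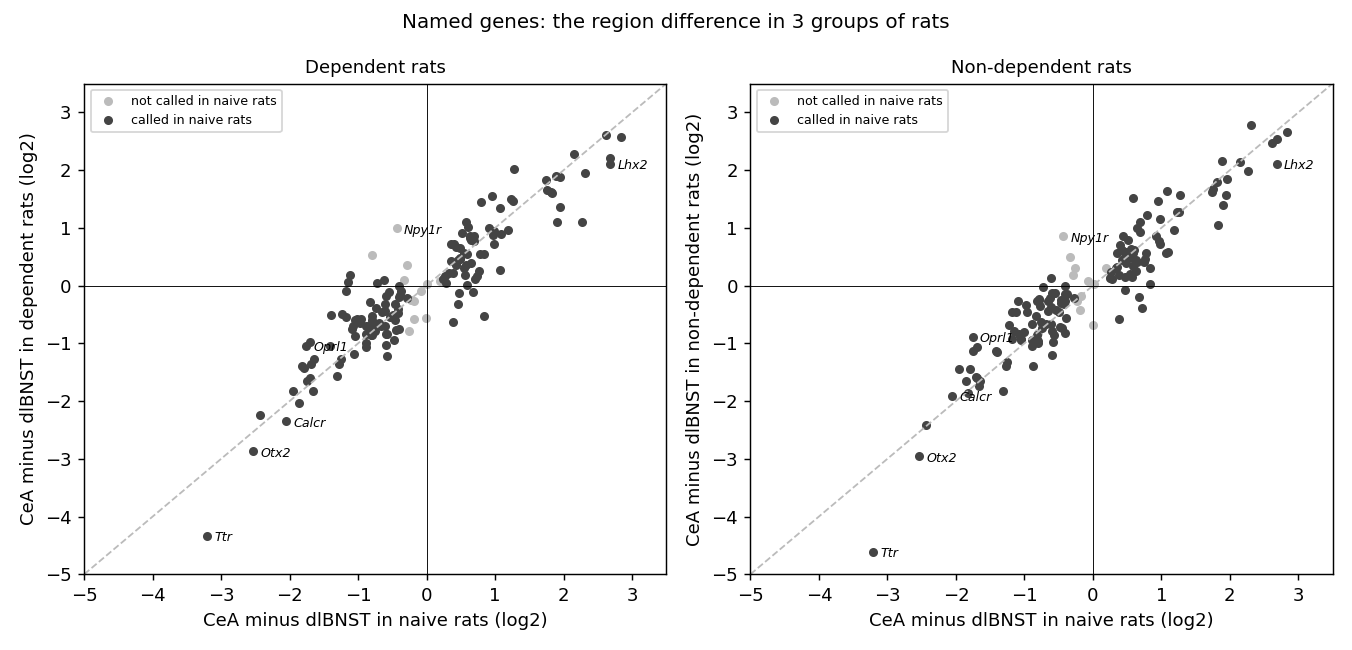
CeA minus dlBNST (log2) in dependent rats (left, vertical axis) and non-dependent rats (right, vertical axis) against the same difference in naive rats (horizontal axis) for 157 named genes, with the line of equal values dashed. Most points lie in the quadrants of equal sign, Ttr lies lowest, and Npy1r is above 0 in drinking rats at -0.43 in naive rats.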

How the data were processed

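Expression was measured on Affymetrix RN230 2.0 arrays, 1 array for each microdissected region, rat group and replicate number, 96 in all. The deposited levels are on the log2 scale and were made by the authors with GCRMA, a background correction, quantile normalization and summary of probes into probe sets. The submitters' processing notes name GCRMA 2.36.0 and R 3.03. The table held 31099 probe sets, of which 20832 name 1 gene, 436 several and 9831 none in the platform annotation. Those naming 1 gene were used, with the brightest probe set (highest mean over 96 arrays) for each of 14218 genes. Genes with a mean above 4 over the 8 naive arrays (8695) were tested.

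Differences were fitted with limma 3.58.1 in R 4.3.3, 4 arrays against 4, with Benjamini-Hochberg adjustment over all 8695 genes and a threshold of 0.05. The authors' methods compare groups by a plain t-statistic of the same arrays, which was tried as an alternative, as were other filters, scalings, probe set rules, a shared fit of 32 arrays, the replicate number as a block and leaving out each array. The number of arrays limits the precision. In simulated data with 200 of 8695 genes changed, 53% of those changed by 0.5 units and 89% of those changed by 1 unit were recovered, with 11 false calls. A far larger share, 36.6%, was called in the data. The adjusted p depends on that share, so the simulated rates hold for the simulated setting and are not those of this comparison.

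The labels number the arrays 1 to 4 in each group and do not say which rat each came from, so p-values measure the spread between these arrays. Deviations of same-numbered CeA and dlBNST arrays from their group means correlated at 0.323, 0.190, 0.293 and 0.175 in naive rats. Each array there correlated best with its own number, so the numbers were taken to pair them, a link drawn from the data. In dependent rats the correlations were 0.107, -0.029, -0.065 and 0.204. In non-dependent rats they were -0.064, 0.070 and 0.038 for replicates 1, 3 and 4. The own number was not always the best in the drinking rats, so the link rests on the naive rats. The block was fitted for the region difference in each rat group and, added after seeing the data, for the interactions. Calls it changed are given.

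The gene lists, the compared regions and the named genes were chosen with earlier results of these data known. Named were the 15 genes per direction with the largest difference among called genes whose regions did not overlap, up to 6 called genes per direction in each of 24 lists, fixed names such as Crh, Prkcd and Nr3c1, and up to 3 genes per direction of each interaction. Other genes named as members of a list were chosen after their values were seen. Promoters came from RefSeq (GRCr8), and probe sets from the platform annotation. Crhr1, Lhx6, Lhx8 and Actb had no probe set naming them alone and are not analysed here.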

Additional observations from a re-analysis of the deposited data

Results flagged for a closer look

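Among 314 groups of 4 naive arrays, 1 region and 1 named gene each, 18 held an array whose gap to the nearest of the other 3 exceeded Dixon's 95% limit. Chance flags about 1 in 20 groups. Of the 18, 7 were in dlBNST replicate 2. There, Slc17a6 read 9.06 against 4.56 to 5.21 in the other dlBNST arrays, Dlx1 7.58 against 5.96 to 6.13, Cyp19a1 5.91 against 4.03 to 4.24, Slc15a2 7.10 against 6.38 to 6.48 and LOC102553173 3.91 against 3.23 to 3.33. Ppp1r1b was low there at 6.11 against 6.68 to 6.73, and Cacna1h at 4.67 against 5.03 to 5.07. Slc17a6, Dlx1 and Cyp19a1 averaged 10.87, 9.76 and 6.42 in the ventral BNST. The part of neighboring tissue in these values was not tested.

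The other dlBNST values flagged were both in replicate 3, with C19h1orf198 at 6.10 against 6.25 to 6.28 and Robo2 at 8.72 against 8.50 to 8.53. In CeA, replicate 4 was low for Aldoc (11.20 against 11.44 to 11.48) and Camk2a (6.77 against 7.43 to 7.54) and high for Ptgs2 (6.85 against 6.07 to 6.20). CeA replicate 2 was low for Foxp2 (6.94 against 7.97 to 8.15) and high for Grik1 (5.86 against 5.37 to 5.43) and Npr2 (6.90 against 6.37 to 6.44). CeA replicate 1 was high for Egr2 (6.30 against 5.69 to 5.71) and Slc1a3 (13.65 against 13.54 in the others), and CeA replicate 3 was low for Ano3 (11.82 against 11.97 to 12).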

How the results depend on the processing

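The naive counts, 1227 genes higher and 1957 lower in CeA, stayed within 1.5 times under every alternative run. They were 1460 and 2064 without a filter, 998 and 1369 with a mean above 6, 1578 and 1642 after quantile normalization, 1778 and 1491 with equal array medians, 1036 and 1703 with the mean of all probe sets, 914 and 1549 with the spread of 32 arrays, and 982 and 1622 with the methods' t-test (3793 in all at an unadjusted 0.05, 2604 after adjustment). Leaving out 1 array gave 969 to 1267 higher and 1625 to 1823 lower. With the replicate block they were 1336 and 2047. Of 157 named genes, the block ended the calls of C19h1orf198, Prkcd, Scn9a and Slc1a3, added Yeats4 (-0.33, adjusted p = 0.0258) and changed no other call. Only the mean of all probe sets turned the direction of named genes, with Aqp4 at -0.15 (adjusted p = 0.189), Cnr1 at -0.018 (adjusted p = 0.908) and Scn3b at -0.233 (adjusted p = 0.0972). The shared fit of 32 arrays ended 37 calls, the t-test 25, the mean of all probe sets 12 and each scaling 7. In dependent rats, leaving out 1 array gave 462 (without CeA replicate 2) to 605 higher and 667 (without CeA replicate 3) to 877 lower. In non-dependent rats it gave 84 to 496 higher and 242 to 876 lower, the lowest of both without CeA replicate 4, the replicate block gave 369 higher, and adding CeA replicate 2 gave 0 higher and 0 lower. The causes were not tested. For the interactions, leaving out 1 of 23 arrays gave 0 to 4 calls in dependent rats and 0 in non-dependent rats, and these left-out fits were added after seeing the data, as was the replicate block, which gave 0 calls in both. The 4 arrays a region and the filter level limit what can be called among small differences and dim genes.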

Other observations

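Gene families outside the lists above, chosen after their values were seen, are given as values. Over all genes tested, 36.6% were called, 14.1% higher and 22.5% lower in CeA. The share called, in both directions together, was not above this for the proteasome, complex I and ribosomal protein genes. Of 41 proteasome genes tested, 15 were lower in CeA and none higher (median -0.20, and 13 lower and 3 higher with arrays scaled to the same median). Of 16 subunits of the proton pump that acidifies vesicles (V-ATPase), 10 were lower and none higher (median -0.33), and 8 were lower and none higher under either scaling. Of 33 subunits of respiratory complex I, 10 were lower and none higher (median -0.20, and 7 lower and 2 higher with equal medians), while of 48 cytosolic ribosomal protein genes 8 were lower and 4 higher (median -0.05). The Gapdh control was lower in CeA by 1.41 on the same arrays, and its part in these counts was not tested.

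Of 25 interferon-induced genes listed, also chosen after the values were seen, 14 were tested, and 5 were higher and none lower in naive CeA. Over all genes tested, 36.6% were called, 14.1% higher and 22.5% lower. The share called among the 14, in both directions together, was not above that of all genes. Ifit2, which binds viral RNA, was at 6.52, 6.63, 8.12 and 7.11 in CeA and at 4.65, 5.81, 5.37 and 6.16 in dlBNST, a difference of 1.60 (SE 0.38, limma adjusted p = 0.00933). Isg15, a ubiquitin-like protein, was at 4.68, 6.02, 6.67 and 5.08 in CeA and at 4.00, 4.34, 4.01 and 4.63 in dlBNST, a difference of 1.37 (SE 0.37, adjusted p = 0.0164). Both were highest in CeA replicate 3. In dependent rats Ifit2 was higher in CeA by 0.83 (adjusted p = 0.0129) and Isg15 by 0.57, which was not called (adjusted p = 0.106). In non-dependent rats neither was called, with Ifit2 at 0.79 (adjusted p = 0.0678) and Isg15 at 0.53 (adjusted p = 0.443). The others higher in naive CeA, Nmi, Slfn5 and Cmpk2, were called in neither drinking group. B2m, which interferon also induces, was not called in naive rats (-0.29, adjusted p = 0.0949) and was lower in CeA by 0.87 in dependent rats (adjusted p = 0.00547) and by 0.72 in non-dependent rats (adjusted p = 0.0207).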
